A study of Mus musculus with 2 samples.

Results

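The genes of glycolysis and of the response to low oxygen were followed in the mandibular prominence, the paired facial swelling that forms the lower jaw and carries the early tongue, of mouse embryos that lacked the ciliary motor gene Kif3a in the neural crest. The set was a list of 44 gene symbols, of which 43 occurred in the tables of 30723 genes. The symbol Pkm2 did not occur and Pkm, the current name of the same gene, did. Of the 43 genes, 39 had a mean of 1 or more FPKM (fragments per unit of transcript length and of library depth) over both libraries, and these were compared within the 12259 genes at that level. Aldoc, Eno2, Adm and Car9 lay below it.

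The study compared 2 groups with 1 library each. One is labelled control, with no further genotype, and the other is Kif3a f/f ; Wnt1-Cre, in which Cre driven from the Wnt1 transgene deletes the floxed Kif3a in neural crest cells and their descendants, while epithelium, muscle precursors, endothelium and blood keep the gene. Both are labelled as a mixed CD1 background and stage E11.5, and each library is a pool of 10 embryos. The labels do not say whether the controls carried a floxed allele or Cre. In the names of the deposited tables the mutant is e11 and the control e11.5, and the run numbers differ, so that genotype, sequencing run and a possible gap in stage cannot be told apart. With no replicate, no test between the groups exists and no p-value is given. Intervals in parentheses are 95% exact binomial intervals on approximate fragment numbers, 24700000 for control and 24500000 for mutant tissue in all, and they cover counting error only.

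Glycolysis splits glucose into pyruvate in the cytosol and yields ATP without oxygen. Pyruvate then either enters the mitochondria through pyruvate dehydrogenase or is reduced to lactate and exported. Under low oxygen the transcription factor HIF, a pair of an unstable alpha subunit (Hif1a or Epas1) and the stable partner Arnt, escapes hydroxylation by the Egln enzymes and destruction through Vhl, and it activates glucose transporters, most glycolytic enzymes, Pdk1, Vegfa and Bnip3. Midgestation embryos express the glycolytic enzymes at high levels, and HIF activity in them is set at the level of protein, which RNA does not show.

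HIF binds DNA at a short core, of which ACGTG is a common form, and only this form was searched. The stretches of 250 bases before the start of 3 members that were higher in the mutant, Ldha, Hk2 and Slc16a3, and of Pdk2, the lowest member, are shown because they set such cores beside the values that follow. These 4 were chosen after their values were seen. Sequences are from RefSeq on build GRCm38.p6, 5′ to 3′ on the strand of the gene, and capitals mark ACGTG on either strand, with overlapping matches merged.
Ldha, chr7:46845554-46845803, strand plus: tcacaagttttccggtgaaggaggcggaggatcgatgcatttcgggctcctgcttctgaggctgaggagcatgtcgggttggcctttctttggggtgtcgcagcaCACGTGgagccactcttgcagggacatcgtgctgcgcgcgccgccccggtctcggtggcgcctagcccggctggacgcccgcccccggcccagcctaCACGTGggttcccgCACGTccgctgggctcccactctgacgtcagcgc
Hk2, chr6:82774455-82774704, strand minus: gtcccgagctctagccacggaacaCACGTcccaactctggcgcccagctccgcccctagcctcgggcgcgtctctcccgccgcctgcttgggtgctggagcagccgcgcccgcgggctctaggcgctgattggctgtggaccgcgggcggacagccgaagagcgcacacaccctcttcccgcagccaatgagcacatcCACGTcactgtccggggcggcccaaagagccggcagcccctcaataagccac
Slc16a3, chr11:120948817-120949066, strand plus: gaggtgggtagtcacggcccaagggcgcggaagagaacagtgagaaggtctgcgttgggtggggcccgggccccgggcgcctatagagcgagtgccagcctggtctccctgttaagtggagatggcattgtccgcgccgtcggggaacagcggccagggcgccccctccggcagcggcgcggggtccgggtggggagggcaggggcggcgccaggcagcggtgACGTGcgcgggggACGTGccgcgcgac
Pdk2, chr11:95041372-95041621, strand minus: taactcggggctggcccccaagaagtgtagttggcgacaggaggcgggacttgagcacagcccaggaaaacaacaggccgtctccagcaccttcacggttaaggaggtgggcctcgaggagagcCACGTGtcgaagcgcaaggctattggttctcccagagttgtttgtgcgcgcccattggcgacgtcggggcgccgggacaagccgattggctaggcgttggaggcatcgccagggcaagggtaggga
ACGTG occurred on either strand in 24 of the 40 members with a promoter window in the RefSeq table, which is 60.0%, against 25.7% of the 8510 compared genes with a window. Counted by window, since a gene can have several, it occurred in 28 of 57 windows of members. This is 49.1%, against 16.6% of all 32851 windows of this length. The 40 include Aldoc, Eno2, Adm and Car9, which were not compared. Members were listed partly as HIF targets, and the part of that choice in their share was not tested. Ldha, which makes lactate from pyruvate, had 3 such places, Hk2 and Slc16a3 had 2 each, and Pdk2 had 1. Pdk1 and Eno1 had 0 places with ACGTG in any of their windows, which says nothing of other forms of the core. Their values follow below. Of the 23 compared members with the letters, 16 lay above the median gene, with a median difference from it of 0.11 on the log2 scale. The 13 without them had 7 above it and a median of 0.08. Over all compared genes, 1081 of the 2190 with the letters lay above the median gene, with a median of -0.0041. Of the 6320 without them, 3136 did, with a median of -0.0032. A match is only a run of letters and does not show that HIF binds there.

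As a check of the label, Kif3a stood at 11.46 FPKM in control and 5.39 in mutant tissue, 0.471 of the control value (0.431 to 0.514). The labelled tissue carried its defining genes: all 10 jaw mesenchyme markers, such as Twist1 and Hand2, passed the minimum of 1 FPKM, and their sum was 870.1 FPKM in control and 776 in mutant tissue. The cells around the mesenchyme differed between the pools. The 14 erythroid markers found in the tables summed to 26017 and 7360 FPKM, the 13 skeletal muscle markers to 48.6 and 14.1, the 15 endothelial markers to 128 and 88.3 and the 10 macrophage markers to 27.8 and 17.7. The 13 oral epithelial markers summed to 205 and 233. Of these 13, 9 lay at least 0.32 above the median gene on the log2 scale, 69.2% against 14.7% of all genes. In the other direction, 2 lay at least that far below it, 15.4% against 10.9% of all genes. Defining genes were present in both libraries, none of the erythroid, endothelial, macrophage or epithelial markers being at 0, and 1 muscle marker in control and 2 in mutant tissue being at 0. In bulk tissue, fewer cells of a type and less RNA per cell cannot be told apart, and the part of these cells in the values below was not tested.

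Differences are given as log2((mutant FPKM + 1) / (control FPKM + 1)), called the log2 ratio. Over all 12259 genes compared its median was -0.13, and the 5th and 95th percentiles were -0.61 and 0.43. Scaling both libraries to the same summed FPKM over all transcripts, called TPM-like scaling, moved that median to 0.39. A direction as deposited can thus turn in a gene that keeps its side of the median gene, as for Hk1, Pfkm, Ldhb and Vhl below. Distances from the median gene can shift as well. With transcripts under 200 bases left out of that scaling, the median was 0.11, and these genes kept a negative log2 ratio. The set as a whole lay close to the median gene: the median log2 ratio of the 39 compared members was -0.03, or 0.10 above the median gene, and all members together summed to 4578 FPKM in control and 4423 in mutant tissue. Of the 39, 24 lay above the median gene, which is 61.5% against 50.0% of all genes, a share near that background. A distance of at least 0.32 on the log2 scale from the median gene was reached upward by 9 members, 23.1% against 14.7% of all genes, and downward by 2, 5.13% against 10.9%. The 9 were Slc2a3, Hk2, Eno1, Eno3, Slc16a3, Pdk1, Pfkfb3, Bnip3 and Vegfa, and the 2 were Ldhb and Pdk2. No member was at least 2-fold higher, where 0.767% of all genes were, and 1, Pdk2, was at least 2-fold lower, where 1.36% of all genes were.

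**Figure D1:**
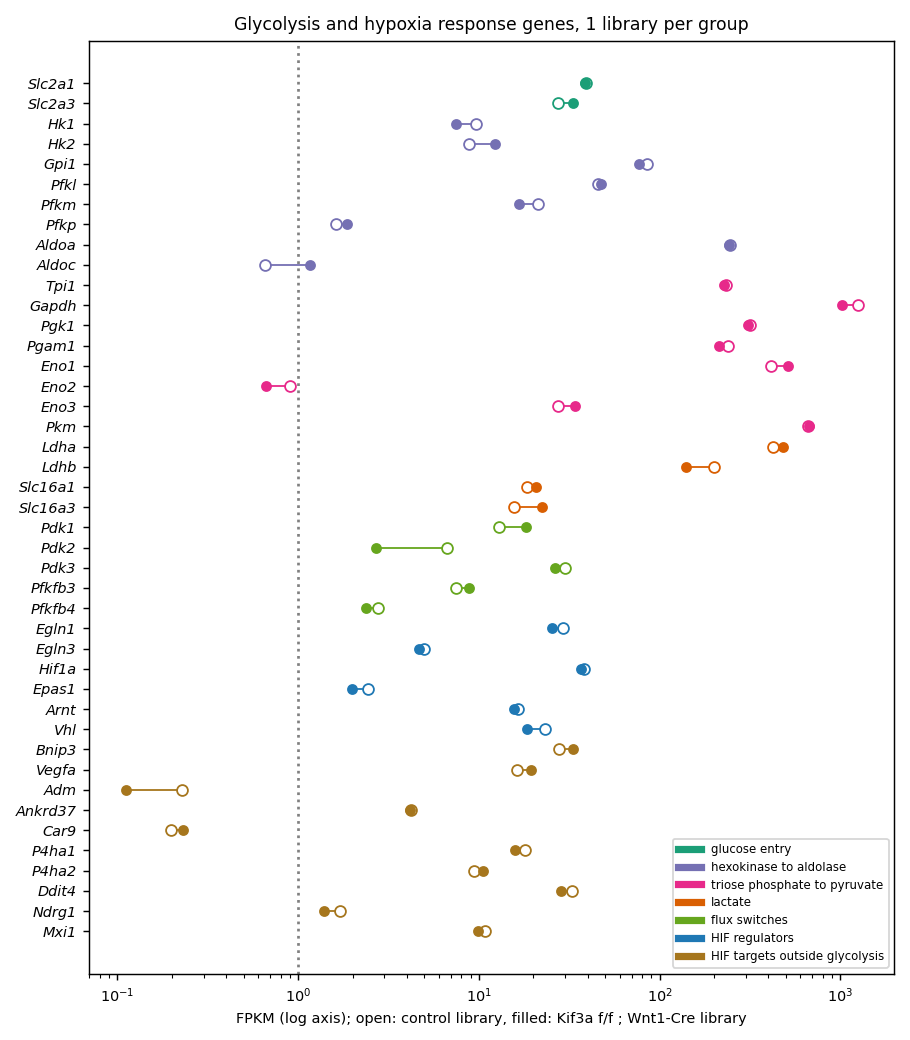
FPKM of the 43 members found in the tables, on a log axis, in the control library (open circles) and the Kif3a f/f ; Wnt1-Cre library (filled circles), 1 library per group, coloured by role; the dotted line marks 1 FPKM. Levels span from under 1 to over 1000 FPKM, and the longest gap between the circles of a compared gene is that of Pdk2, at 6.64 and 2.68 FPKM.

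By role, the 25 compared glycolysis genes (transporters, enzymes, lactate handling and flux switches) had a median log2 ratio of -0.01. Of these, 16 lay above the median gene, 64% against 50.0% of all genes. At least 0.32 above it lay 7, 28% against 14.7%, and at least that far below it 2, 8% against 10.9%. The 8 compared HIF targets outside glycolysis had a median of -0.06. Of them, 5 lay above the median gene, 62.5% against 50.0%, and 2 by at least 0.32, 25% against 14.7%. The 6 HIF regulators had -0.14, at the level of the median gene, with 3 on each side and 0 that far from it in either direction.

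Glucose enters the cell through facilitative transporters. Slc2a1 (GLUT1, the transporter of most embryonic tissues) stood at 39.3 FPKM in control and 38.5 in mutant tissue, a ratio of 0.980 (0.928 to 1.03). Slc2a3 (GLUT3, a transporter of high affinity) stood at 27.5 and 33.1 FPKM, 1.20-fold higher in the mutant (1.15 to 1.27) with a log2 ratio of 0.26. Slc2a1 was therefore level and Slc2a3 higher, and the share of Slc2a3 in their sum was 41.1% in the control and 46.2% in the mutant.

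Hexokinases trap glucose as its phosphate. Hk1, the housekeeping form, stood at 9.65 FPKM in control and 7.49 in mutant tissue, a ratio of 0.775 (0.707 to 0.851). Hk2, the inducible form and a HIF target, stood at 8.83 and 12.2 FPKM, 1.38-fold higher (1.29 to 1.49), and its log2 ratio of 0.43 was at percentile 94.9 of all genes. As deposited, the 2 genes differed in opposite directions, while with TPM-like scaling Hk1 had a log2 ratio of 0.20, still below the median gene. Hk1 was the more abundant in the control and Hk2 in the mutant, and their sum was 18.5 and 19.7 FPKM. The ratio of Hk2 to Hk1 was 0.915 in control and 1.63 in mutant tissue, a 1.78-fold difference (1.59 to 2.005).

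The next steps to aldolase were close to level. Gpi1, which turns glucose phosphate into fructose phosphate, had 85.0 and 76.6 FPKM and a log2 ratio of -0.15. Its transcript of 2856 bases had 84.2 and 71.6 FPKM, and the one of 1569 bases had 0.868 and 5.05. Among the phosphofructokinases, which commit sugar to glycolysis, the liver form Pfkl led with 45.7 and 47.6 FPKM. The muscle form Pfkm stood at 21.4 and 16.7 FPKM, a ratio of 0.784 (0.728 to 0.844), and the platelet form Pfkp was low at 1.61 and 1.86. As deposited, Pfkm was thus lower in the mutant while Pfkl and Pfkp were not, and with TPM-like scaling Pfkm had a log2 ratio of 0.23, still below the median gene. The ratio of Pfkl to Pfkm was 2.14 in control and 2.84 in mutant tissue. The muscle markers given above were lower in the mutant as well. Aldoa, the main aldolase, was level at 245 and 243 FPKM, a ratio of 0.991 (0.964 to 1.02). Aldoc, the brain form, was below the minimum at 0.652 and 1.17 FPKM, on about 26 and 51 fragments, a ratio of 1.79 (1.09 to 2.99).

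The lower part of the pathway was the most abundant. Gapdh, which oxidises triose phosphate, was the highest member in both libraries at 1249 and 1023 FPKM, a ratio of 0.819 (0.807 to 0.831), and its log2 ratio of -0.29 lay 0.16 below the median gene. Tpi1, which interconverts the triose phosphates, stood at 233 and 228 FPKM. Pgk1, which makes the first ATP of the pathway, stood at 315 and 309.9, and Pgam1, the phosphoglycerate mutase, at 238 and 214. These 4 had log2 ratios between -0.29 and -0.02, so none was higher in the mutant on the values as deposited, while Tpi1 and Pgk1 lay 0.10 and 0.11 above the median gene.

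Eno1, the ubiquitous enolase, differed in direction from Gapdh, Tpi1, Pgk1 and Pgam1 on the values as deposited. Its level was 412 FPKM in control and 515 in mutant tissue, 1.248-fold higher (1.22 to 1.27), and its log2 ratio of 0.32 was at percentile 91.7. Its transcript of 1776 bases held 99.7% of the control value and 99.3% of the mutant value, at 411 and 511 FPKM. Eno3, the enolase of muscle, stood at 27.4 and 33.9 FPKM, 1.24-fold higher (1.13 to 1.35). Its transcript of 1443 bases alone had 20.9 and 24.7 FPKM, a ratio of 1.18 (1.07 to 1.30). An entry of 172 bases had 4.35 and 6.79 FPKM, a ratio of 1.56 (0.859 to 2.92). The skeletal muscle markers were lower in the mutant, and the part of muscle in the Eno3 value was not tested. Eno1 kept 93.8% of the sum of Eno1 and Eno3 in each library. Eno2, the neuronal enolase, was at 0.8996 and 0.663 FPKM, below the minimum. Pkm, the pyruvate kinase of nearly all embryonic tissues, was level at 662 and 669 FPKM, a ratio of 1.01 (0.997 to 1.02), and 1 of its 4 transcripts held 97.5% and 96.9% of it. Summed over the 16 enzymes found, from hexokinase to pyruvate kinase, the FPKM was 3556 in control and 3400 in mutant tissue. Several of these enzymes have near-identical processed pseudogenes in the mouse genome, Gapdh most of all, and the handling of reads shared with them is not stated, so their levels are uncertain.

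The 2 lactate dehydrogenase genes lay on opposite sides of the median gene. Ldha, whose subunit favours the formation of lactate and which HIF activates, stood at 427 FPKM in control and 483 in mutant tissue, 1.13-fold higher (1.11 to 1.16). Ldhb, whose subunit predominates in heart-type tetramers, stood at 199 and 139.9 FPKM, a ratio of 0.704 (0.678 to 0.730), and its log2 ratio of -0.50 was at percentile 8.43. As deposited, Ldha was higher and Ldhb lower in the mutant and the sum of both was 626 and 623 FPKM, while with TPM-like scaling Ldhb had a log2 ratio of 0.081, still below the median gene. The ratio of Ldha to Ldhb was 2.15 in control and 3.46 in mutant tissue, a 1.61-fold difference (1.54 to 1.68). The monocarboxylate transporters carry lactate across the membrane. Slc16a3 (MCT4, the exporter of glycolytic cells) stood at 15.7 and 22.3 FPKM, 1.42-fold higher (1.31 to 1.54), and its log2 ratio of 0.48 was the highest of all compared members, at percentile 96.0. Its transcript of 2481 bases had 12.1 and 15.0 FPKM and the one of 2386 bases 3.55 and 7.24, so both were higher in the mutant. Slc16a1 (MCT1) stood at 18.4 and 20.6 FPKM, 1.12-fold higher (1.06 to 1.19).

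Of the 5 switches that set the fate of glucose carbon, 2 were at least 0.32 above the median gene, 40% against 14.7% of all genes. At least that far below it was 1, 20% against 10.9%. The kinases Pdk1, Pdk2 and Pdk3 phosphorylate and inhibit pyruvate dehydrogenase. Pdk1, the HIF-activated one, stood at 12.9 FPKM in control and 18.2 in mutant tissue, 1.42-fold higher (1.33 to 1.52), with a log2 ratio of 0.47 at percentile 95.9. Pdk2 stood at 6.64 and 2.68 FPKM on about 379 and 164 fragments, 2.48-fold lower in the mutant (2.06 to 2.99), and its log2 ratio of -1.05 was at percentile 1.24. Pdk1 and Pdk2 thus lay near opposite ends of all genes compared. Pdk3, the most abundant of the 3, stood at 29.9 and 26.5 FPKM, with a log2 ratio of -0.17 close to the median gene. The ratio of Pdk1 to Pdk2 was 1.93 in control and 6.79 in mutant tissue, a 3.51-fold difference (2.89 to 4.27), and that of Pdk1 to Pdk3 was 0.431 and 0.688, a 1.60-fold difference (1.45 to 1.76). Pdk2 lies on chromosome 11 from 95026258 to 95041371 and has 1 transcript in the tables, of 2263 bases. Pdk1 lies on chromosome 2 from 71873272 to 71903858, and its main transcript of 5137 bases alone had 11.4 and 14.8 FPKM, a ratio of 1.29 (1.21 to 1.38).

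The bifunctional enzymes Pfkfb3 and Pfkfb4 make and remove fructose 2,6-bisphosphate, the activator of phosphofructokinase. Pfkfb3 stood at 7.46 and 8.81 FPKM, 1.18-fold higher (1.083 to 1.29). This value rested on its rarer transcripts: the main one, of 5018 bases, had 6.87 and 6.10 FPKM, a ratio of 0.889 (0.808 to 0.978), and those of 5105 and 2203 bases had 0.409 and 0.185 FPKM in the control and 1.28 and 0.725 in the mutant. Pfkfb4 was low at 2.78 and 2.38 FPKM, a ratio of 0.857 (0.710 to 1.03).

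**Figure D2:**
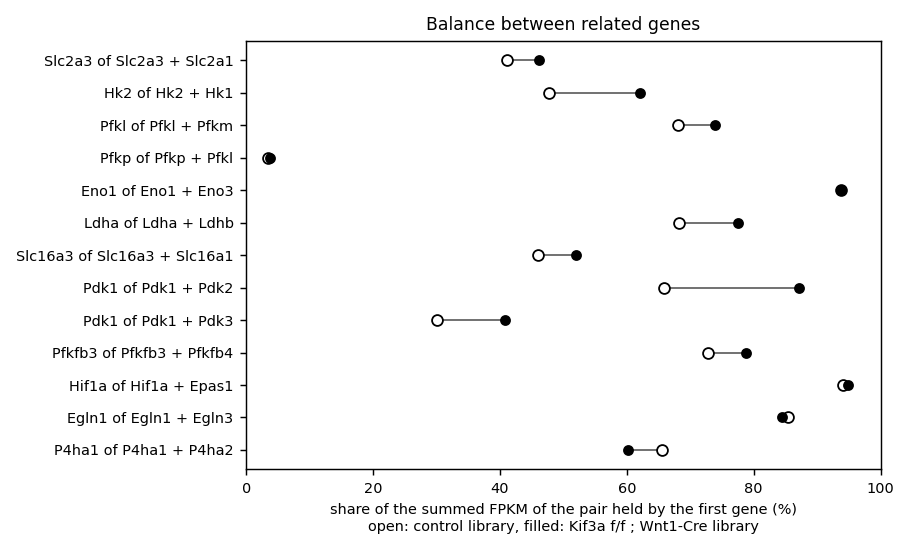
Share of the summed FPKM of 13 pairs of related genes that the first gene of the pair held, in percent, in the control library (open circles) and the Kif3a f/f ; Wnt1-Cre library (filled circles). The share of Pdk1 in Pdk1 and Pdk2 was 65.9% and 87.2%, that of Hk2 in Hk2 and Hk1 47.8% and 62.0%, and that of Ldha in Ldha and Ldhb 68.2% and 77.6%.

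A ratio between related genes of the same library does not depend on how the libraries were scaled, which is why the balance of pairs was followed. The pairs and the order within each were chosen after the values were seen. Counting intervals are narrow beside the spread over all genes, so that an interval that leaves out 1 is no mark of these pairs. It included 1 for Eno1 to Eno3, Pfkp to Pfkl, Hif1a to Epas1 and Egln1 to Egln3. Among the 13 pairs, those with the largest differences were Pdk1 to Pdk2, Hk2 to Hk1 and Ldha to Ldhb. With the effect of transcript length removed, described below, their log2 differences were 1.34, 0.67 and 0.65, against 1.81, 0.84 and 0.69 as deposited. The values with length removed carry the pseudocount of 1 and those as deposited do not, so the gap between them is not the effect of length alone. Such intervals hold for these 2 libraries and not for the genotypes.

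The regulators of HIF were close to the median gene. Hif1a, the oxygen-sensitive subunit of most cells, stood at 38.4 FPKM in control and 37.0 in mutant tissue, a ratio of 0.962 (0.924 to 1.003). Epas1 (HIF2 alpha, prominent in endothelium) was low at 2.43 and 1.998 FPKM, a ratio of 0.823 (0.700 to 0.967), beside the lower endothelial markers given above. Arnt, the common partner, stood at 16.4 and 15.7 FPKM. The summed level of Hif1a hid opposite differences of its transcripts. The one of 4385 bases, with the upstream start, had 12.1 and 9.05 FPKM, the one of 4761 bases 21.5 and 17.9, and the one of 4764 bases 4.85 and 9.94. The last pair differ by so few bases that the division of fragments between them is uncertain.

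Of the genes that remove HIF, Vhl, the receptor subunit of its ubiquitin ligase, had the lowest ratio of mutant to control, 0.785 (0.731 to 0.844), at 23.4 and 18.3 FPKM. With TPM-like scaling its log2 ratio was 0.23, still below the median gene. Egln1, the main oxygen-sensing prolyl hydroxylase, stood at 29.2 and 25.3 FPKM, a ratio of 0.868 (0.821 to 0.917). Egln3, a hydroxylase that HIF itself activates, stood at 4.99 and 4.65 FPKM. Vhl lay 0.20 and Egln1 0.07 below the median gene, and Egln3 lay 0.05 above it.

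HIF targets outside glycolysis were divided. Bnip3, a mitochondrial protein that promotes mitophagy, stood at 27.7 FPKM in control and 33.4 in mutant tissue, 1.20-fold higher (1.12 to 1.30). Vegfa, the growth factor of blood vessels, stood at 16.2 and 19.3 FPKM, 1.19-fold higher (1.11 to 1.28). Both lay at least 0.32 above the median gene on the log2 scale, and Vegfa did so while markers of endothelium, the tissue that responds to it, were lower. Of the Vegfa transcripts, the main one of 3459 bases had 7.57 and 8.65 FPKM, those of 2769 and 1469 bases 2.14 and 0.721 in the control and 3.90 and 2.32 in the mutant, and those of 2637 and 3531 bases 1.60 and 0.7996 against 0.810 and 0.248.

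The other targets lay nearer to the median gene. Ddit4, an inhibitor of mTORC1 signalling, stood at 32.7 and 28.6 FPKM, Mxi1, an antagonist of Myc, at 10.8 and 9.93, and Ndrg1, a stress-induced gene, at 1.71 and 1.38. Ankrd37 stood at 4.19 and 4.14 FPKM on about 93 and 98 fragments, a ratio of 0.989 (0.737 to 1.33). All 4 lay within 0.12 of the median gene on the log2 scale. P4ha1 and P4ha2 encode collagen prolyl 4-hydroxylase subunits, which stabilise the collagen helix. P4ha1 stood at 17.9 and 15.9 FPKM and P4ha2 at 9.40 and 10.5. For P4ha1 the difference came from an entry of 359 bases with 2.36 FPKM in the control and near 0 in the mutant, while its 2 transcripts of 4043 bases had 8.41 and 7.15 in the control and 6.94 and 8.70 in the mutant. Adm, the vasodilator adrenomedullin, and Car9, a carbonic anhydrase that is among the most oxygen-dependent HIF targets, were near the limit of detection. Adm had about 8 and 3 fragments, at 0.228 and 0.111 FPKM, and Car9 about 10 and 12 fragments, at 0.197 and 0.230 FPKM, so neither gave a difference that this depth could show.

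**Figure D3:**
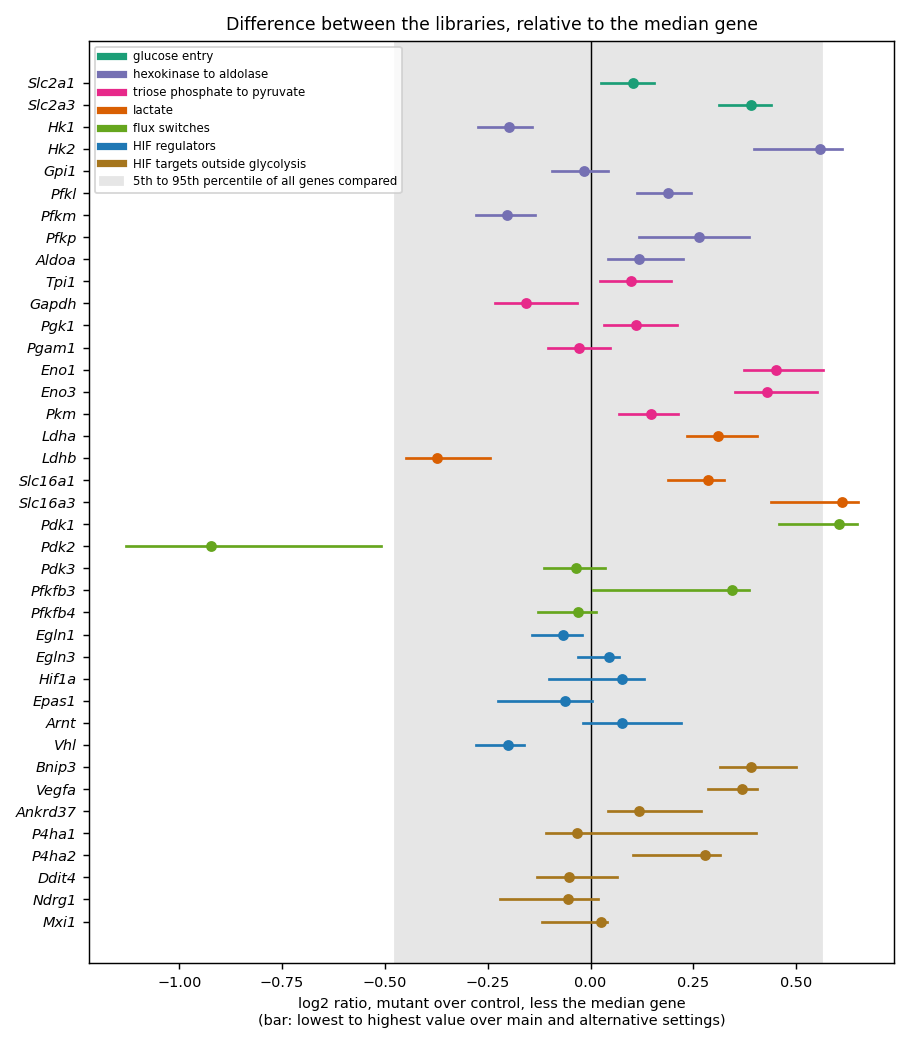
Log2 ratio of the 39 compared members less that of the median gene (points), coloured by role, with bars from the lowest to the highest value over the main and alternative settings, and in grey the 5th to 95th percentile of all 12259 genes compared. Pdk2 lies left of the grey band at -0.92, Slc16a3 and Pdk1 lie right of it at 0.61 and 0.60, and the HIF regulators lie between -0.20 and 0.08.

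Transcript length moved with the ratio across all genes and is given beside the members for that reason. The median log2 ratio was -0.26 for 1301 genes whose main transcript had over 1000 to 1500 bases, -0.17 for 2867 genes of over 2000 to 3000 bases and 0.06 for 1453 genes of over 5000 to 8000 bases. Hk2 and Pdk1 have long transcripts, of 5511 and 5137 bases, and most enzymes of the lower pathway have short ones. With a running median over length subtracted, Eno1 had 0.57, Eno3 0.55, Bnip3 0.50, Ldha 0.40, Slc16a3 0.64, Pdk1 0.46, Hk2 0.40, Vegfa 0.34 and Slc2a3 0.33, while Pfkfb3 had 0.21. All of these but Pfkfb3, 9 members, were at least 0.32 above genes of their length, where 11.3% of all genes were, and 8 of them had also been so relative to the median gene. Downward, 1 member, Pdk2 at -0.88, was at least 0.32 from genes of its length, where 9.01% of all genes were, and Ldhb had -0.24. Gapdh, Pgam1 and Gpi1, with -0.03, 0.05 and 0.01, were at the level of genes of their length. The median of the 39 members was 0.13 on this scale, that of the 25 glycolysis genes 0.19 and that of the 6 HIF regulators -0.07. Above 0 lay 19 of the glycolysis genes, 76%, and 1 of the HIF regulators, 16.7%, against 50.0% of all genes.

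**Figure D4:**
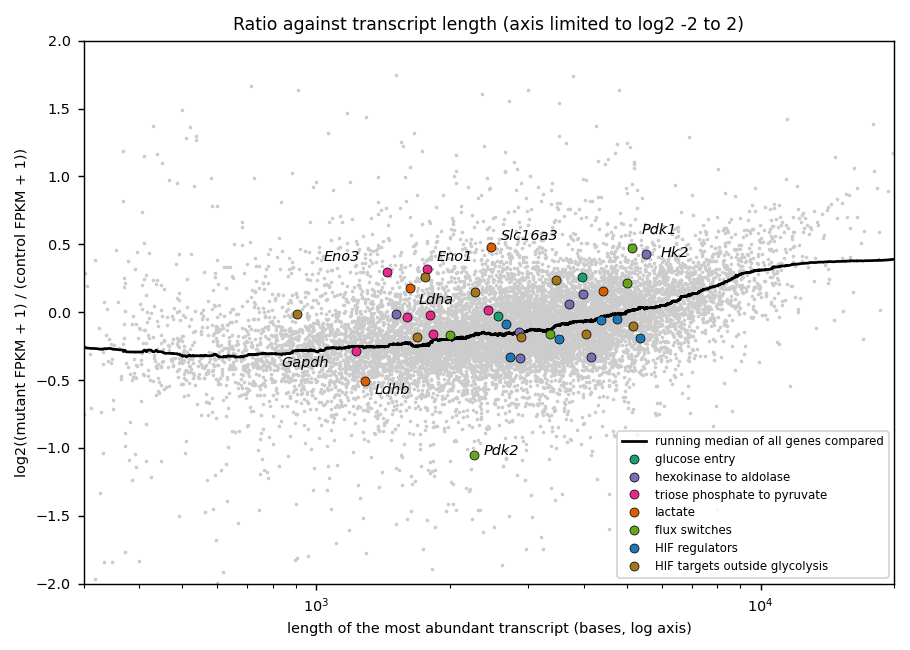
Log2 ratio, mutant over control, against the length of the most abundant transcript (log axis) for all genes compared (grey points), with their running median (line) and the members coloured by role. Eno1, Ldha and Slc16a3 lie above the line, which is near -0.2 at their lengths, Pdk1 and Hk2 lie above it where it is near 0, and Ldhb and Pdk2 lie below it.

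Further genes of carbon metabolism mostly lay near or below the median gene. Of 27 further glycolysis and gluconeogenesis genes, 14 were compared, with a median log2 ratio of -0.28. Of these, 3 lay above the median gene, 21.4% against 50.0% of all genes. Pgam2, the muscle mutase, stood at 2.44 and 1.04 FPKM, Bpgm, the bisphosphoglycerate mutase of red cells, at 39.7 and 23.8, and Pfkfb1 at 4.17 and 2.40. These 3 were at least 0.32 below the median gene, 21.4% of the 14 against 10.9% of all genes. They were lower along with the muscle and erythroid markers, whose part in them was not tested. Pfkfb2, named after its value was seen, was the 1 gene at least 0.32 above the median gene, 7.14% of the 14 against 14.7%. It stood at 2.57 and 3.22 FPKM. Its main transcript has 7308 bases, and with the length trend removed it had 0.09, so that 0 genes of this list were that far above genes of their length. Pgam5, a mitochondrial phosphatase, was the most abundant at 39.8 and 33.0.

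The pentose phosphate pathway branches off glucose phosphate to make NADPH and ribose. Its 10 genes had a median of -0.10, with 6 above the median gene, 60% against 50.0% of all genes. Taldo1 (transaldolase), the most abundant, stood at 118 and 78.7 FPKM and Rpia at 14.9 and 10.8, while Prps2, which makes the activated ribose of nucleotides, stood at 7.93 and 10.00. All 27 genes of pyruvate dehydrogenase and the citric acid cycle were compared, with a median of -0.17. Of these, 10 lay above the median gene, 37.0% against 50.0% of all genes. Their sum was 1875 FPKM in control and 1574 in mutant tissue. Mdh2 (malate dehydrogenase), the most abundant, stood at 190.4 and 138 FPKM, and the succinate dehydrogenase genes Sdhc and Sdhb at 122 and 129 in the control and 85.1 and 96.2 in the mutant.

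Further genes of the HIF pathway and further HIF targets gave no common direction. The 16 pathway genes had a median of -0.09 with 9 above the median gene, 56.25% against 50.0% of all genes. The coactivators Ep300 and Crebbp were the 2 at least 0.32 above it, 12.5% against 14.7%. They stood at 10.3 and 7.30 FPKM in the control and 15.9 and 11.6 in the mutant. With the length trend removed only Crebbp, at 0.43, was still that far above genes of its length. Ep300, at 0.3217, lay just under the unrounded threshold, and Hif3a, an alpha subunit, was then the 1 gene that far below, at -0.42. Tceb2, the elongin B of the Vhl ligase, stood at 393 and 291, and Hsp90ab1, a chaperone that binds the alpha subunit and the most abundant, at 972 and 812. Of 29 further targets, 22 were compared, with a median of -0.20. Of these, 9 lay above the median gene, 40.9% against 50.0% of all genes. Lox, a collagen crosslinking enzyme, stood at 2.28 and 0.740 FPKM, 3.09-fold lower, Igfbp3 at 33.7 and 18.4, and Pdgfb, a growth factor made by endothelium, at 2.65 and 1.57. These 3 were at least 0.32 below the median gene, 13.6% against 10.9% of all genes. At least 0.32 above it were 5, namely Car12, Ak4, Kdm3a, Tfrc and Ero1l, named after their values were seen. This is 22.7% against 14.7% of all genes, close to the 23.1% of the 39 members. With the length trend removed only Car12, at 0.59, was still that far above genes of its length, and the others had 0.24 to 0.28. With its most abundant transcript alone, Ak4 had a log2 ratio of -1.24. Fam162a was the most abundant at 100.1 and 81.7 FPKM.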

How the data were processed

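RNA was measured in 2 libraries, 1 per group, each from 10 pooled embryos. The authors deposited 1 table per library of 59120 transcripts with length, coverage signal, FPKM and an estimate status, per the file headers. The naming of the tables gives Cufflinks as the tool. The aligner, versions, trimming and strandedness are not stated in the labels or headers, so reads of overlapping antisense genes cannot be told apart. The submitters' processing notes name build mm9, but 72.1% of 45475 transcripts with a symbol in both shared a start or an end with GENCODE M21 on GRCm38. Starts were counted from 0, so 1 was added, and coordinates are given on GRCm38.

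In each table, 65 lines with displaced columns were left out. The FPKM values of a symbol's transcripts were summed, and genes with a mean of 1 or more were compared with a pseudocount of 1, which understates differences of low genes. The deposited coverage times length, divided by 156 bases for control and 153 for mutant tissue (the median of low values between 80 and 220 bases in genes with 1 transcript of over 1500 bases), gave approximate fragments. Length was removed by a running median over 501 genes. The functions were tested on simulated data. Python 3.11.15, pandas 2.3.3 and scipy 1.17.1 were used.

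The members, lists and rules were chosen with earlier results of these data known. All members are named, as are the 3 genes with the largest absolute log2 ratio and the most abundant gene of each other pathway list. The cell type lists are given by their sums, and the epithelial list by its counts as well. Alternatives were other pseudocounts, filters, scalings, transcript choices and the length correction.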

Additional observations from a re-analysis of the deposited data

How the results depend on the processing

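Of the 39 compared members, 27 kept their side of the median gene under each of the 11 alternatives that gave them a value, 20 above it and 7 below, and 12 changed side under at least 1. Centring cannot change a side, and the scalings can do so only through the pseudocount. The like counts over all genes compared were not made, so these counts are no mark of the set. The 20 include Slc2a3, Hk2, Eno1, Eno3, Ldha, Slc16a3, Pdk1, Bnip3 and Vegfa, and the 7 include Pdk2, Ldhb, Hk1 and Vhl. Pfkfb3 stayed above by as little as 0.005 with the most abundant transcript alone. Medians shifted with the scaling, because the median of all genes shifted too, to -0.01 with upper quartile scaling, 0.39 with TPM-like scaling and 0.11 when that scaling left out transcripts under 200 bases. In this order, the median log2 ratio of all members was 0.10, 0.51 and 0.21, that of the glycolysis genes 0.12, 0.57 and 0.25, that of the HIF regulators -0.019, 0.39 and 0.10, and that of the HIF targets 0.059, 0.45 and 0.17. Centred on the median gene, these 4 medians were 0.10, 0.12, -0.0084 and 0.072, and with the length trend removed those of all members, glycolysis genes and HIF targets were 0.13, 0.19 and 0.17. Of the log2 ratios at least 0.32 from 0, those that changed sign did so with TPM-like scaling, Hk1 to 0.20, Pfkm to 0.23, Ldhb to 0.081 and Vhl to 0.23, all still below the median gene. None of them changed sign when that scaling left out transcripts under 200 bases. Counting members of any size, 23 turned positive with TPM-like scaling, 16 when that scaling left out transcripts under 200 bases, 10 with the length trend removed and 9 each with upper quartile scaling and centring. With the most abundant transcript alone, 2 turned positive, P4ha1 at 0.25 and Arnt at 0.07, and 2 negative, Pfkfb3 and P4ha2. The count of members at least 0.32 above the median gene was 5 with a pseudocount of 5. The count at least 0.32 below it was 1 with a mean FPKM of 5 or more, with TPM-like scaling and with the length trend removed. The 1 member at least 2-fold lower, Pdk2, became 0 members with a pseudocount of 5, a mean FPKM of 5 or more (Pdk2 lies under it), upper quartile scaling, both TPM-like scalings, the length trend removed and centring on the median gene. With TPM-like scaling 2 members were at least 2-fold higher. No paired analysis was possible because each group has 1 library. Depth limits Adm, Car9, Aldoc, Eno2, Ankrd37, Ndrg1 and Pfkp most.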
